A study of Mus musculus with 6 samples.

Results

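Some cytosines were read far more often than the rest in reduced representation bisulfite sequencing of mouse testis, and they are described here as a set. A member was a position on chromosomes 1 to 19 with at least 3000 methylation calls, methylated and unmethylated, summed over 6 libraries, outside a window of 8 kb on chromosome 17 that holds a copy of ribosomal DNA with the gene Rn18s-rs5. Of 12616229 positions listed on these chromosomes, 325 were members, a share of 0.00258%. Members under 2 kb apart were joined, which gave 39 loci. Members were chosen by depth alone, so their depth is given as a description. The methylation levels and the comparison of groups were not used in the choice. The name multicopy sequence was not checked against a genome, because no repeat annotation was used and sequence was read only for promoter windows.

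The samples were right testes of 6 mature male KM mice, an outbred strain. The hemicastrated group of 3 had lost the left testis to surgery before puberty, and the sham group of 3 had a sham operation at the same time. Each mouse gave 1 library, so whole testes with all their cell types were measured and a shift in cell types and a change within cells cannot be told apart. The libraries held 63359019 to 77194210 calls on chromosomes 1 to 19.

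In this assay the enzyme MspI cuts DNA at CCGG, short fragments are kept, and bisulfite turns unmethylated cytosines into bases that are read as thymine, while methylated cytosines stay. A reference genome holds a repeated sequence in fewer copies than the animal does. Reads from all copies that are too alike to be separated can then be stacked on the few copies in the reference, and the methylation level at such a position is a mean over copies as well as over cells. A copy or allele that holds thymine there is read like an unmethylated cytosine. Sequence differences between copies or between mice were not examined. In mice, tandem satellite repeats around the centromeres, arrays of ribosomal RNA genes and segmental duplications are such sequences. They are known to be methylated in most cells to varying degrees, and to vary in copy number between animals.

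Promoter windows of the RefSeq table (250 bases before and 50 bases after the start site) held members of 2 loci. These are shown because they are the members whose sequence, strand and CpG context could be read. Both stretches are the 250 bases before the start site of build GRCm38.p6, written 5′ to 3′ on the gene's strand, with the CpGs that are members in capitals. The first belongs to Smarca5, which encodes the ATPase of ISWI chromatin remodelling complexes (chr8:80739460-80739709, minus strand). The second belongs to the uncharacterised long noncoding RNA gene LOC115490388 (chr6:3182866-3183115, plus strand).
Smarca5: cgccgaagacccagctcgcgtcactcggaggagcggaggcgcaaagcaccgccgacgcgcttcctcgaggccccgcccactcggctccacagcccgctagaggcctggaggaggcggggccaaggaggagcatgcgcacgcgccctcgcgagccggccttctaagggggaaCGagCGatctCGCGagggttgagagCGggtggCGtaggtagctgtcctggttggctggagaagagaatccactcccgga
LOC115490388: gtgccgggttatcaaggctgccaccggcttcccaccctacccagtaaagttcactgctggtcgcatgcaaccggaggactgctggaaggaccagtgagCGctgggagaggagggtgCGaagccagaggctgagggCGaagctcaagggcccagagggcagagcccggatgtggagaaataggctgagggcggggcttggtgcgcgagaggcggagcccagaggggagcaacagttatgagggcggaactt

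In each stretch the CCGG sites that flank the members were 93 bp apart, within the 40 to 220 bp that the submitters selected. The Smarca5 stretch held 29 CpGs, of which 6 were members, all of them cytosines of the gene's own strand. Each Smarca5 member had 5813 to 5828 calls and a mean level of 3.57% to 9.87%. The cytosines opposite them, on the other strand of the same CpGs, had 836 to 839 calls and levels of 4.54% to 10.7%. The LOC115490388 stretch held 13 CpGs, of which 3 were members, with 4785 to 4796 calls and levels of 4.37% to 4.65%. Opposite them were 179 to 180 calls and levels of 6.71% to 7.36%. At both genes 1 strand carried the excess of reads and the levels of both strands were low. CCGG, which reads the same on both strands and was the only motif searched, was found in 52.8% of the 32851 promoter sequences of the table. By blastn, the LOC115490388 promoter was similar to 4 other promoters of the table, among them Gm33022 (84.0% identity over 294 bp) and Gm31138 (87.4% over 199 bp), and the Smarca5 promoter to 0 others at an e-value limit of 1e-20. The gene table also lists a Smarca5 pseudogene, Smarca5-ps, on another chromosome.

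**Figure D1:**
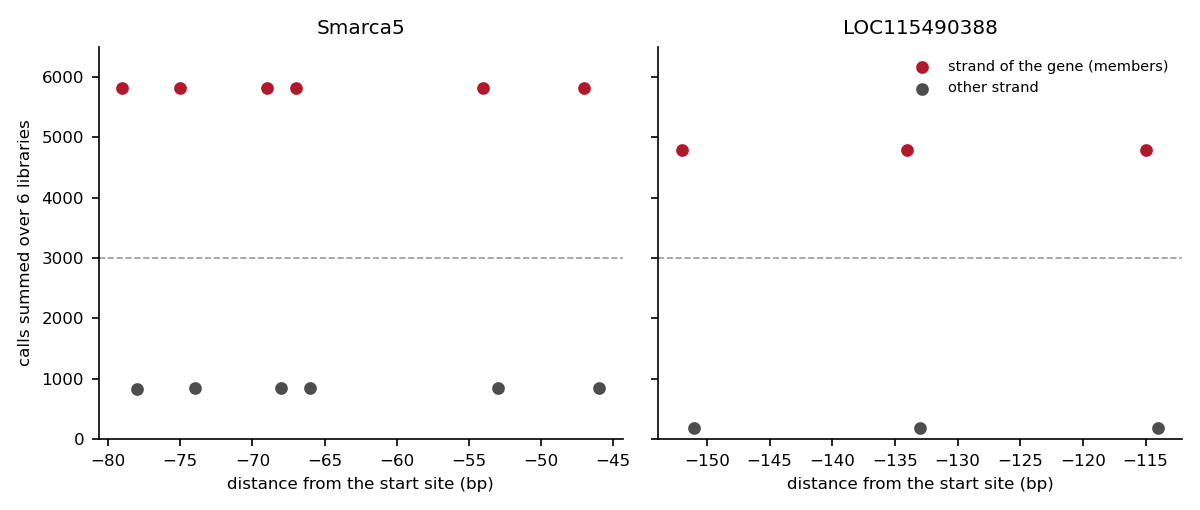
Calls summed over the 6 libraries (vertical axis) at each CpG cytosine near the start sites of Smarca5 (left) and LOC115490388 (right) against the distance from the start site in bp. Red points are cytosines of the gene's strand, all members, grey points are the other strand, and the dashed line is the minimum of 3000; the red points sit at 5813 to 5828 and 4785 to 4796, the grey ones at 836 to 839 and 179 to 180.

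A similar imbalance of strands was found at part of the members. The files name no strand, and adjacent listed positions were taken as the cytosines of 1 CpG where their run had an even length, which left 302 of the 325 members with a partner. The partner's depth was a median of 36.2% of the member's own depth, against 82.4% at positions with 150 to 600 summed calls, which served as comparison positions throughout. It was under 20% for 139 members (46.0%), against 15.8% of comparison positions with a partner. It was over 50% for 134 members (44.4%), against 68.9% of those comparison positions. A threshold on depth applied to single cytosines picks the deeper one of a pair, so part of these gaps is set by the rule. By locus, the median partner depth was under 20% at 20 of 33 loci with such members and 80% or more at 5. Where the partner had at least 60 calls, the levels of the pair differed by more than 20 points at 10 of 240 members (4.17%), against 0.286% of comparison positions.

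Members had a median of 4785 summed calls, against 305 at the 633442 comparison positions, and a median of 862 calls per library against 51. The deepest had 56424 calls. The member just inside the threshold had 3001 calls and the position just outside it 2989, with 83.2% methylation at the first (chr4:75511056) and 93.6% at the second (chr2:141103616). Together the members took 3098953 calls, which is 0.718% of all calls on chromosomes 1 to 19. At these depths the counting error of a level was a median of 1.04 points of SD. It covers counting error only, because reads carried no molecular identifiers and PCR copies could not be removed here.

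The loci were short. In 32 of 39 the members spanned 220 bp or less, 6 more spanned 243 to 374 bp, and 1 spanned 1039 bp. The sequence around them was thinly read, the median position within 10 kb having a median of 2.0 summed calls over loci, and under 100 at 38 of 39. Of the loci, 19 lay inside a gene of the table and 20 outside, while 76.0% of comparison positions lay inside a gene. The gene that held a locus or lay nearest to it was a pseudogene at 9 loci (23.1%), a long noncoding RNA gene at 12 (30.8%) and protein-coding at 17 (43.6%). At comparison positions these shares were 5.38%, 11.6% and 81.5%. At least 1 pseudogene lay within 100 kb of 30 loci. This count, the counts by symbol that follow and the depth of the flanks were not taken at comparison positions. By the symbol of the gene that held the locus or lay nearest, 17 loci had a predicted Gm gene, 2 a LOC gene, and 1 each a microRNA gene (Mir101c, 37157 bp away), a vomeronasal receptor gene (Vmn1r64, 23076 bp away) and a zinc finger gene (Zfp978, which held it), while 0 had genes of 5S rRNA, tRNA, small nuclear or nucleolar RNA, olfactory receptors or histones. These are positions in the reference, and the copies from which the reads came are unknown.

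Members were mostly of intermediate methylation. Of the 325, 53.8% had a mean level of 20% to 80% over the 6 mice, against 7.45% of the 621291 comparison positions read in every library. Members under 5% made up 15.1%, against 60.6%. By locus, the mean level was under 10% at 8 loci, 10% to 30% at 1, 30% to 80% at 19 and 80% or more at 11. The plot of all loci by mouse shows loci wide and narrow, the 4 widest being those in Cmss1, in Gm36876, at chr6:3201426 and in Cwc22, the last with a mean level of 9.25%.

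**Figure D2:**
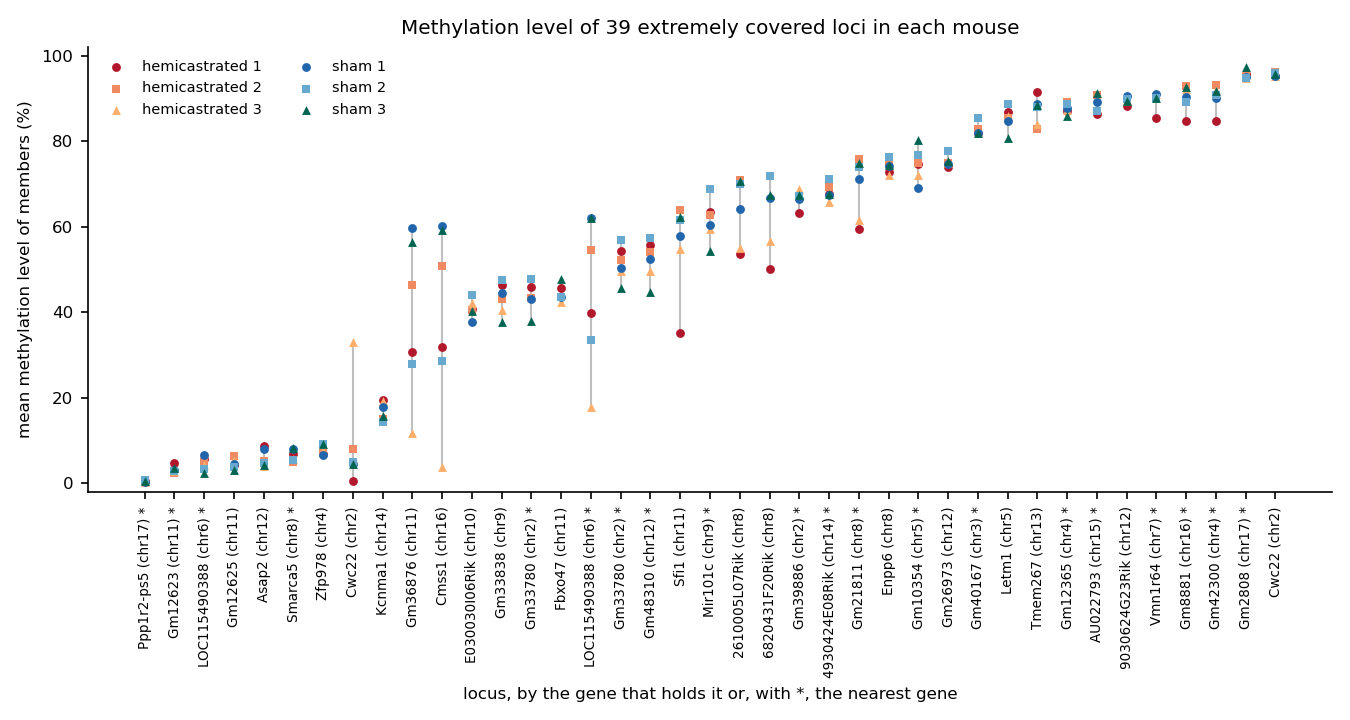
Mean methylation level of the members of each of the 39 loci (vertical axis, %) in each of the 6 mice, loci ordered by their mean over mice and named by the gene that holds them or, with an asterisk, the nearest gene. Red and orange symbols are hemicastrated mice, blue and green ones sham mice, and the grey line runs from the lowest to the highest mouse; the widest locus, in Cmss1, runs from 3.71% to 60.2%.

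The lowest loci held very deep, nearly unmethylated sequence. At chr17:6476888-6476963, 15228 bp from the pseudogene Ppp1r2-ps5, all 29 listed positions were members. Their mean level was 0.542%, 0.510% and 0.395% in hemicastrated mice 1 to 3 and 0.370%, 0.753% and 0.449% in sham mice 1 to 3. The mice overlapped within a range of 0.383 points, the narrowest of the 39 loci, while depth there differed 2.91-fold between mice. Mitochondrial DNA in the same libraries was read as 0.478% to 0.617% methylated. The level of this locus is therefore near the floor, which leaves little room for a range. At chr11:60575951-60576050, 202 bp from the pseudogene Gm12623, 11 members averaged 3.26%. At chr12:21112061-21112132, in Asap2, which encodes a GTPase-activating protein for Arf proteins, 9 members averaged 5.80%. With the loci at LOC115490388 (4.55%) and Smarca5 (6.53%), these were the 5 lowest loci of at least 3 members.

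The highest loci of at least 3 members were at chr4:75511056-75511141 (90.4%), chr16:54868076-54868116 (90.3%), chr7:5860419-5860504 (89.6%), chr15:39989088-39989173 (89.1%) and chr4:35542577-35542666 (87.7%), all outside genes. Hemicastrated mouse 1 was the lowest of the 6 mice at the first 4 of them. At chr4:75511056-75511141 the level was 84.7% in that mouse, 93.1% and 92.0% in hemicastrated mice 2 and 3, and 90.1%, 90.8% and 91.7% in sham mice 1 to 3.

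Those first 4 loci, of 3 to 5 members each, also had members at matching distances, each match resting on 3 or 4 members. Distances between members were compared between all 465 pairs of loci with at least 3 members each, in both orientations, a comparison made after the data had been seen. A pair was kept if at least 75% of the members of the smaller locus and 45% of the larger fell on the same spacing. This kept 15 pairs, which joined 11 loci into 3 families. How often such matches arise by chance was not estimated. The 45% rule shut out small loci against far larger ones. All 5 members at chr2:98662265, all 4 at chr9:3001454 and chr9:35305418, and all 3 at chr12:3109911 fell on spacings of the 32 at chr2:98666272. Their median level gaps were 3.52 to 7.79 points. All 3 members at chr16:54868076 likewise fell on spacings of the 29 at chr17:6476888, at a median gap of 92.6 points. The 4 high loci formed 1 family with 16 members, with mean levels of 85.3%, 91.8% and 91.3% in hemicastrated mice and 90.2%, 89.2% and 91.4% in sham mice. Another family joined chr3:146356360-146356602, chr8:46962278-46962554 in Enpp6, which encodes a choline-specific phosphodiesterase, chr12:56584353-56584612 in Gm26973 and chr14:120649376-120649635. Its 33 members averaged 74.1%, 75.4% and 73.6% in hemicastrated mice and 74.5%, 77.6% and 74.8% in sham mice. Matched members of its loci, which lie on 4 chromosomes, differed by a median of 1.35 to 5.69 points. In the 3 pairs with the chromosome 3 locus, which is mirrored, the most different match was 88.5 to 89.5 points apart, and in the other 3 it was 4.56 to 8.90 points apart.

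The third family lay within 1 stretch of chromosome 8 and differed more between mice. It joined chr8:20122706-20122795 near the pseudogene Gm21811, chr8:20297016-20297095 in 6820431F20Rik and chr8:20424286-20424369 in 2610005L07Rik, both of the latter being transcribed pseudogenes. Its 46 members averaged 54.4%, 72.8% and 57.7% in hemicastrated mice 1 to 3 and 67.3%, 71.9% and 71.0% in sham mice 1 to 3. Hemicastrated mice 1 and 3 were below the other 4 mice at all 3 loci, and hemicastrated mouse 2 was the highest of the 6, so the groups overlapped. At the 21 members in 6820431F20Rik the mean was 59.5% ± 11.2 in the hemicastrated group and 68.6% ± 2.76 in the sham group (SD, n = 3 each), with p = 0.4 by an exact two-sided permutation test whose smallest possible p is 0.1. Hemicastrated mice 1 and 3 were also the lowest 2 mice at 3 other loci, those in Enpp6, at chr3:146356360 and in Sfi1. At chr3:146356360 they were nearly level with sham mouse 1, at 81.86% and 81.88% against 81.90%. That locus and the one in Enpp6 belong to 1 family by spacing. How often these 2 mice were the lowest at comparison positions was not counted.

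Within loci, single cytosines could differ far more than mice did. In 6 loci, 1 member was under 20% and another over 80%. At chr11:97861169-97861455 in Fbxo47, which encodes an F-box protein expressed in germ cells, 8 members ran from 2.69% to 94.2%, while the locus mean ranged over mice by only 5.26 points. In 4 loci, members at least 150 bp apart repeated each other's values, within 1 point of level and 5% of the count in every library, 10 pairs in all. In Fbxo47 the members at 97861217 and 97861455, 238 bp apart, had identical counts in every library, 3444 calls in all and a level of 23.7%. In Enpp6 and in Gm26973 the repeat distance was 199 bp, and at chr2:101350477-101350850 it was 340 bp. The labels and notes do not say how reads were assigned among such positions. Whether the same reads were counted at both positions of a pair was not tested, so they may not be separate measurements.

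The locus with the most calls followed the ribosomal DNA copy from mouse to mouse. It lay at chr6:3201426-3201558, outside genes and 2915 bp from LOC115490388, and its 27 members took 32.5% of all member calls, with up to 40446 at 1 position. Its level was 39.8%, 54.4% and 17.8% in hemicastrated mice 1 to 3 and 62.1%, 33.6% and 62.1% in sham mice 1 to 3. In the left-out chromosome 17 window, the 362 positions with at least 3000 calls had mean levels of 28.9%, 41.4% and 12.3% in hemicastrated and 56.4%, 22.9% and 53.0% in sham mice. Sham mice 1 and 3 were highest and hemicastrated mouse 3 lowest at both places, and sham mouse 2 lay among the hemicastrated mice.

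The locus at chr11:109011787-109011836, in the long noncoding RNA gene Gm36876, had the same order over its 8 members, with 30.7%, 46.4% and 11.8% in hemicastrated and 59.7%, 27.8% and 56.3% in sham mice. So had 14 members at chr16:57391288-57391501 in the overlapping genes Cmss1 and Filip1l, with 31.8%, 50.8% and 3.71% in hemicastrated and 60.2%, 28.6% and 59.3% in sham mice. This last locus had the widest range of all, 56.5 points. Cmss1 encodes a ribosomal small subunit protein homologue and Filip1l a filamin A interacting protein. Across the 6 mice, the level of the chromosome 6 locus correlated with that of the ribosomal copy at Pearson r = 0.985 (exact permutation p = 0.00278, adjusted over 39 loci 0.0361) and Spearman rho = 0.943 (exact permutation p = 0.0167, adjusted 0.163). For Gm36876 r was 0.995 and for Cmss1 0.976 (exact permutation p = 0.00139 for each, adjusted 0.0271), with rho = 1.0 for both (exact permutation p = 0.00278, adjusted 0.0542). Without the 2 mice farthest from the median of the ribosomal copy, r was 0.993, 0.993 and 0.987. Over those 4 mice alone, r exceeded 0.9 in size at 7 other loci, negative at 6 of them. No other of the 39 loci had an unadjusted p under 0.05 for r, a comparison made after the data had been seen.

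**Figure D3:**
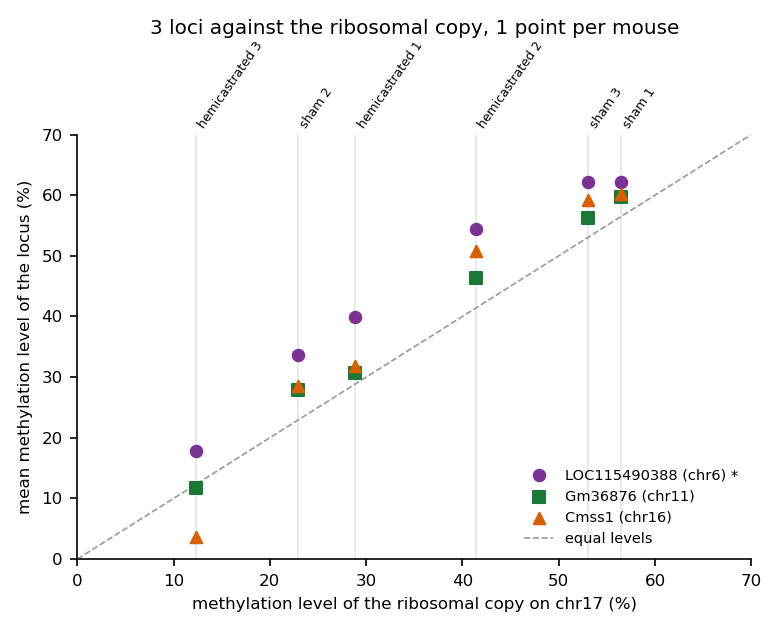
Mean methylation level of 3 loci (vertical axis, %) against that of the ribosomal DNA copy on chromosome 17 (horizontal axis, %), 1 point per mouse and locus, with mice named above the plot and a dashed line of equal levels. All 3 loci rise with the ribosomal copy, from hemicastrated mouse 3 at 12.3% to sham mouse 1 at 56.4%, and the groups overlap along the axis.

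Depth moved with level at the first and second of these loci. The chromosome 6 locus had a mean depth per member, in calls per 1000000 calls of the library (CPM), of 83.7, 90.0 and 50.1 in hemicastrated mice 1 to 3 and 128, 60.1 and 111 in sham mice 1 to 3. Its calls were 7.18% to 8.90% of those of the ribosomal copy in every mouse. Level and depth correlated at r = 0.944 there and 0.964 in Gm36876 (exact permutation p adjusted over 39 loci 0.108 and 0.0542). At the Cmss1 locus r was 0.434 (exact permutation p = 0.411), and its calls were 0.203% to 0.657% of those of the ribosomal copy. No locus passed 0.05 for this relation after adjustment, and 4 had an unadjusted p under 0.05. The part of depth in the level was not tested.

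A different order of mice was shared by 5 loci outside the ribosomal pattern, 4 of which lie outside genes. The largest was chr2:98666272-98667310, whose 32 members spanned 1039 bp and took 17.6% of member calls, with the deepest single position of the set at 56424. Its level was 54.4%, 52.2% and 49.7% in hemicastrated mice 1 to 3 and 50.3%, 56.9% and 45.7% in sham mice 1 to 3. The others were chr2:98662265-98662411, chr9:3001454-3001512, chr9:35305418-35305522 in Gm33838 and chr12:3109911-3110026. At all 5, sham mouse 2 had the highest level and the lowest depth, sham mouse 3 the lowest level, and hemicastrated mouse 1 the highest depth. No other of the 39 loci had both orders, a pattern picked out after the values were seen. At the largest, depth was 60.6, 29.3 and 47.1 CPM per member in hemicastrated and 36.7, 27.1 and 36.1 in sham mice. Of the 39 loci, 5 lay within 250 kb of the first listed position of their chromosome, among them those at chr9:3001454 and chr12:3109911. That count was not made at comparison positions.

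**Figure D4:**
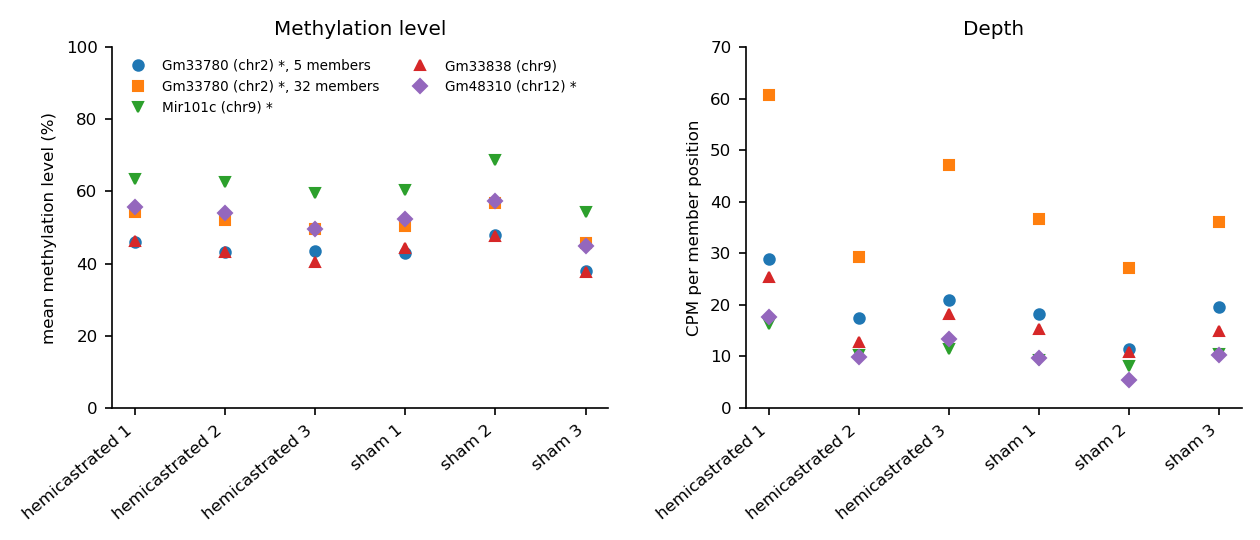
Mean methylation level (left, %) and depth in CPM per member position (right) of 5 loci in each of the 6 mice, 1 symbol per locus. In all 5 the highest level is in sham mouse 2 and the lowest in sham mouse 3, and the highest depth is in hemicastrated mouse 1, at up to 60.6.

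Single mice weighed heavily at loci in Cwc22 and Sfi1. In Cwc22, a spliceosome-associated gene in a segment known to vary in copy number among mice, 11 members at chr2:77946051-77946168 had 0.542%, 8.11% and 33.0% in hemicastrated mice 1 to 3 and 4.54%, 4.89% and 4.41% in sham mice. Hemicastrated mouse 3 was high and mouse 1 low, so that the hemicastrated mean exceeded the sham mean by 9.27 points (exact permutation p = 0.7) and without hemicastrated mouse 3 was below it, the difference being -0.288 points. Of these 11 members, the one at 77946126 was at only 0.085% to 0.754% in the 6 mice. A separate locus in Cwc22, at chr2:77912338-77912396, stayed at 95.2% to 96.2% in all 6 mice. In Sfi1, which encodes a centrin-binding protein, 10 members at chr11:3193509-3193597 had 35.2%, 63.9% and 54.9% in hemicastrated and 57.8%, 61.5% and 62.2% in sham mice. The difference of -9.22 points there shrank to -1.15 without hemicastrated mouse 1. In Tmem267, a transmembrane protein gene, 18 members at chr13:119488978-119489087 had 91.4%, 82.7% and 84.0% in hemicastrated and 88.7%, 88.0% and 88.5% in sham mice, with 22.1, 5.36 and 6.47 CPM per member in the first and 12.7, 9.25 and 10.2 in the second. Hemicastrated mouse 1 had both the highest level and the highest depth.

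The spread between mice beyond counting error was larger at members than at comparison positions when all levels were pooled, and members had more positions of intermediate level. Its median was 3.72 points of SD at members and 0.0 at comparison positions, where negative estimates, set to 0, are common at low depth. The root of the mean variance left, which has no such floor at single positions, was 8.89 against 3.19 points. Within the band of 20% to 80% it was 11.6 at members against 10.2 at comparison positions, and 6.61 without the 3 loci that followed the ribosomal copy. Within 5% to 20% it was 7.41 against 4.26, and 2.22 without the Cwc22 locus of 11 members. Within 80% to 95% it was 2.48 against 2.96, under 5% it was 0.573 against 0.417, and above 95% it was 1.0 against 0.0. Those 4 loci were left out after being seen as the widest, while the comparison positions kept their own widest. No test was run, because positions of a locus share reads.

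**Figure D5:**
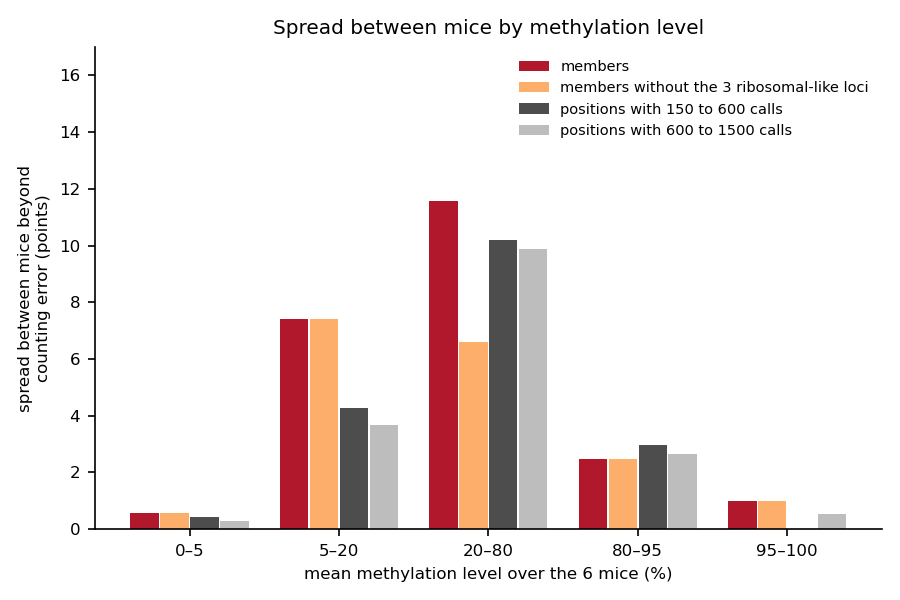
Root of the mean variance between the 6 mice left after counting error (vertical axis, percentage points) in bands of mean methylation level (horizontal axis, %), for members, members without the 3 loci that followed the ribosomal copy, and positions with 150 to 600 or 600 to 1500 summed calls. In the 20% to 80% band the bars stand at 11.6, 6.61, 10.2 and 9.86.

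Depth varied between mice more at members than at comparison positions. The coefficient of variation of depth beyond counting error was a median of 29.6% at members and 9.89% at comparison positions. Members were chosen on the sum of these same counts, which a position can reach through a few deep mice. The contrast is therefore a description only. Over loci, the deepest mouse exceeded the shallowest by a median of 1.71-fold, and by 2-fold or more at 17 of 39. The widest was the single member at chr17:6506158, 2928 bp from Gm2808, with 14.0, 9.34 and 1.28 CPM in hemicastrated and 5.61, 3.77 and 10.5 in sham mice, a 10.99-fold range. Its level nonetheless stayed between 94.8% and 97.4%.

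The comparison the study was built for, hemicastrated against sham, gave no call at members. With edgeR's quasi-likelihood test on single sites and Benjamini-Hochberg adjustment over all 814966 sites tested, 0 of 325 members passed 0.05, the background being 0.0866% of all sites. By limma it was also 0 of 325, with a background of 0.018%. At an unadjusted p under 0.05 edgeR took 21 members (6.46%), against 2.62% of all sites, and all 21 were lower in hemicastrated mice and lay in the Cmss1 locus (14) and the Gm36876 locus (7), which share reads within each locus. Limma took 19 (5.85%), against 4.52%.

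The smallest p belonged to chr16:57391336 in Cmss1. It was 32.1%, 45.8% and 3.91% methylated in hemicastrated and 60.3%, 30.3% and 59.7% in sham mice, a mean of 27.3% ± 21.4 against 50.1% ± 17.1 (SD, n = 3 each). Its adjusted p in edgeR was 0.569. Sham mouse 2 lay below hemicastrated mice 1 and 2, so the groups overlapped. The next were 2 other cytosines of that locus (57391312 and 57391491), with differences of -21.5 and -21.1 points and adjusted p of 0.651 and 0.688 in edgeR. In the other direction the smallest p were at chr2:77946126 and chr2:77946163 in Cwc22 and chr11:60576025 near Gm12623, higher by 0.366, 10.9 and 1.40 points, each with an adjusted p of 0.841 in edgeR. In the edgeR fit of sites the estimate of spread was shared across sites and not made for each site. The wide spread between mice at these loci therefore carried no weight of its own.

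Without hemicastrated mouse 2, edgeR called 12 members, against a background of 0.098% of all sites in that fit, all in the Cmss1 locus and all lower in hemicastrated mice, with differences of -30.5 to -32.8 points (adjusted p from 0.00466 to 0.0372). That locus followed the ribosomal copy, and within the sham mice alone its level ran from 28.6% to 60.2%. Leaving out any other library gave 0 calls at members. Over all sites those fits called 589 to 715, of 783422 to 791156 tested.

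Levels were also compared by whether the groups overlapped. At 10 of 325 members (3.08%) all hemicastrated mice lay on 1 side of all sham mice, against 6.06% of all sites tested. Of these, 7 were lower in hemicastrated mice (background 3.24%) and 3 higher (background 2.82%). In tiles of 500 bp, 47 of the 55 that held a member could be tested, 0 passed 0.05 in edgeR and in limma (background 0.0% for both), and 0 had an unadjusted p under 0.05 in either (background 4.27% and 4.99%). The tile with the smallest p, 0.0893 in edgeR (adjusted 1.0), was chr11:109011501-109012000 in Gm36876, at 29.6% ± 17.2 in hemicastrated and 47.9% ± 17.4 in sham mice (SD, n = 3 each). Next came the tiles chr8:20122501-20123000 and chr8:20297001-20297500, with differences of -7.79 and -9.17 points. In the other direction the tiles with the smallest p were chr11:60576001-60576500, chr6:3182501-3183000 and chr6:3183001-3183500, higher by 0.753, 0.966 and 0.752 points. Groups did not overlap in 1 of the 47 tiles (2.13%), against 9.5% of all tiles.

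By locus, the hemicastrated mean was lower at 25 and higher at 14 of the 39, and the groups overlapped at all 39. The exact permutation p adjusted over the loci was 1.0 for each. Over all members the level was 46.7%, 52.5% and 44.4% in hemicastrated mice (47.9% ± 4.14, SD, n = 3) and 52.8%, 50.2% and 52.5% in sham mice (51.8% ± 1.42, SD, n = 3). The difference of -3.96 points (exact two-sided permutation test, p = 0.2) was -1.59 without the 3 loci that followed the ribosomal copy (exact permutation p = 0.4). At comparison positions the means were 29.9% ± 0.227 and 30.2% ± 0.380 (exact permutation p = 0.5).

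Members took 0.829%, 0.712% and 0.591% of the calls in hemicastrated and 0.834%, 0.579% and 0.781% in sham mice. The difference of -0.0200 percentage points (exact permutation p = 0.9) was 0.0481, the other way, without the chromosome 6 locus (exact permutation p = 0.6). The counts behind this share also chose the members, through their sum over both groups, so it is given as a description.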

How the data were processed

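Reduced representation bisulfite libraries of 6 right testes (3 hemicastrated, 3 sham) were analysed from tables that the authors deposited, 1 per library. Per the labels' protocols, DNA was cut with MspI, fragments of 40 to 220 bp were selected, bisulfite converted, amplified and sequenced on an Illumina GAII. Per the submitters' processing notes, Bismark, TopHat2 2.0.11 and build GRCm38 were used, with no roles stated. The labels and notes do not say how repeats were mapped, reads trimmed or duplicates treated. The deposited counts are raw methylated and unmethylated counts per cytosine, and in the authors' percent column each value is the share of methylated among both counts.

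Members and lists were chosen with earlier results of these data known. Sites with at least 10 reads in all 6 libraries, on chromosomes 1 to 19, X and Y, were tested with edgeR 4.0.16 (quasi-likelihood F test on both counts, Benjamini-Hochberg adjustment, threshold 0.05). Tiles of 500 bp needed at least 3 such sites. Limma 3.58.1 used log2 ratios with 1 added to each count, computed here from the deposited counts. The scripts were tested on simulated data. For group means, exact permutation tests (two-sided) were used, whose smallest p is 0.1. Counting variance was the binomial variance at each depth. Loci were named by the 10 with most calls, the 5 with most members, and, among loci of at least 3 members, the 5 lowest, 5 highest and 5 widest. For sites and tiles with no call, the 3 smallest p in each direction were named. Other loci named were chosen after their values were seen. Genes and promoter sequences came from RefSeq tables of build GRCm38.p6. Nothing says that replicate numbers pair mice across groups, and deviations of same-numbered mice correlated at 0.0251, 0.0277 and -0.00643, so mice were not paired. Alternatives were a replicate block, a robust prior, limma, at least 20 reads, other depth minimums, other joining distances and leaving out each library.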

Additional observations from a re-analysis of the deposited data

How the results depend on the processing

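No member site was called with a replicate block (0), a robust prior (0), limma (0) or at least 20 reads (0). Over all sites, these fits called 606, 446 and 147 of 814966 and 624 of 648397. At such low shares, 0 calls among 325 members does not set them apart. Member tiles gave 0 calls under every alternative run, as did all tiles. Leaving out a library gave 0 to 12 member sites, the 12 without hemicastrated replicate 2, where 0.098% of all sites were called. The difference in mean level (hemicastrated minus sham, main value -3.96 points) stayed negative in every alternative run, from -6.25 to -2.24 when a library was left out, and was -3.96 within replicate numbers (replicate block, exact sign permutation p = 0.5). The difference in share of calls (main value -0.0200 percentage points) ran from -0.0961 to 0.0399 when a library was left out, positive without hemicastrated replicate 3 (0.0399), sham replicate 1 (0.0314) or sham replicate 3 (0.00481). It was 0.0570 without the 3 loci that followed the ribosomal copy and 0.0481 without the chromosome 6 locus, both chosen after seeing the data; with the replicate block it was -0.0200. The excess of the median spread at members over comparison positions (main value 3.72 points) was 2.12 at 2000 or more calls, 4.53 at 5000 or more, 2.84 without those 3 loci, 5.70 by the root of the mean variance (both of the latter chosen after seeing the data), and 3.16 to 4.07 when a library was left out. Loci whose groups did not overlap numbered 0 of 39. At 2000 or more calls they numbered 8 of 106 (7.55%), near the 6.06% of all sites and 9.5% of all tiles. When a library was left out they numbered 0 to 7 of 39 (up to 17.9%), where 2 against 3 mice overlap less often by construction. The share over all sites was not computed for those runs, so their counts show nothing particular to the loci. The cause of the other moves was not tested.

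With 3 mice a group, the smallest exact p is 0.1. A level at these loci is a mean over an unknown number of copies. A change of level in all copies, a change in the mix of copies and a difference in their sequence cannot be told apart. Reads without molecular identifiers make counting errors lower bounds.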
